A study of Mus musculus with 4 samples.

Results

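The endocannabinoid receptor and enzyme genes were taken from the deposited expression table by their symbols. These were Cnr1, Dagla, Daglb, Mgll, Faah and Napepld, and all 6 were found among 17778 genes. The table came from messenger RNA of the mPFC (medial prefrontal cortex, the frontal midline neocortex) of male C57BL/6J mice (C57BL/6 in the sample labels). The mice were juvenile when the study began. A week of adaptation, 3 weeks of stress or unstressed housing, and the behavior tests came before the tissue was taken. The CUMS group (2 libraries) consisted of mice that had been put through chronic unpredictable mild stress and had then met the criteria of depression-like behavior in every one of 3 tests, so that they were the vulnerable part of the stressed mice. The control group (2 libraries) lived without the stressors. Tissue was taken 24 hours after the behavior tests. RNA was isolated from each mouse, but it is not stated outright that a library held RNA of a single mouse.

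Endocannabinoids are lipids that neurons make on demand from their membranes. They travel backward across the synapse, bind the receptor CB1 on the axon terminal and lower transmitter release, and in the mPFC this feedback is known for its part in the stress response and in mood. The lipid 2-arachidonoylglycerol (2-AG) is made by diacylglycerol lipases and broken down mainly by monoacylglycerol lipase, whereas anandamide is formed by NAPE-PLD, among other routes, and broken down by fatty acid amide hydrolase.

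The unit was RPKM, read number scaled to gene length and library size, which is thus per length and allows levels of different genes to be compared. The authors had averaged it over the libraries of each group, so that each gene had 1 control mean and 1 CUMS mean, and no value for a library was at hand. No difference below could therefore be set against the spread between mice, and no test was possible. The steps between low values gave an estimated depth per library of 7473842 fragments in control and 7485030 in CUMS. From these, 95% intervals were computed (exact Poisson for a level, exact Clopper-Pearson for a log2 ratio). They cover counting error only.

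In the depression-like mice, the anandamide-degrading enzyme gene Faah and both 2-AG-making lipase genes, Dagla and Daglb, were higher by 18 to 22.6% than in control. The Daglb value is uncertain, because exons of Rac1 overlap its exons, as described below. The means of the receptor gene Cnr1 differed by 1.45%, at 27.5 and 27.9 RPKM. Mgll, the most abundant member, was 6.21% higher, and Napepld, the least abundant, had a mean of 4.18 RPKM in control and 3.81 RPKM in CUMS. Of the 6 genes, 5 had a higher mean and 1 a lower mean in CUMS, and the ratios stayed between 0.911-fold and 1.23-fold. Cnr1 had the lowest ratio of these 5, and 57.9% of the genes that reached 0.5 RPKM in a group had a lower ratio than Cnr1.

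None of the members passed the 1.5-fold threshold of the study, with 0 of 6 higher and 0 of 6 lower. The study also required a minimum probability from the NOISeq method, and its list of changed genes held none of the members. The counts and shares given here are for the fold alone. Among the 14257 genes that reached 0.5 RPKM in a group, 2.78% were higher and 4.42% were lower by more than this fold. With a looser limit, a difference above 25% of the smaller mean, still 0 of 6 members passed, against 7.62% of genes higher and 11.3% lower. The counting interval lay above 0 in 4 of 6 members and below 0 in 0, while it lay above 0 in 12.6% and below 0 in 16.9% of the same genes. Deeper genes have narrower intervals, and among 9397 genes of at least 5 RPKM these shares were 15.9% and 19.4%, whereas 4 of the 5 members at this level were above 0. These genes were not matched to the members in fragment number. Of the members above 0, Dagla, Daglb (with its uncertain value) and Faah exceeded the median absolute log2 ratio of these genes (0.10), and Mgll (0.09) did not. The median log2 ratio was 0.16 over the members and -0.02 over the genes of at least 0.5 RPKM.

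Cnr1 encodes CB1, the main cannabinoid receptor of the brain. The gene (gene 12801) lies on chr4:33923171-33948831 of GRCm38, plus strand. It had 27.5 RPKM in control (interval 26.5 to 28.7) and 27.9 RPKM in CUMS (26.8 to 29.1), resting on 2391 and 2429 fragments. The log2 ratio was 0.02 (-0.06 to 0.10), so that a difference was not detectable at this depth. The genes nearest to Cnr1 in both means, by distance over 2 group means on the log2 scale, were Kctd10 (distance 0.0090), 1810026J23Rik (0.0092) and 4933434E20Rik (0.013). With only 2 values per gene this likeness is weak, since 155 genes lay within a distance of 0.1.

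Dagla (gene 269060, chr19:10245265-10304877, minus strand) encodes diacylglycerol lipase alpha, the main 2-AG-making enzyme at synapses of the adult brain. Control mice had 29.2 RPKM (28.1 to 30.4) and CUMS mice 34.5 RPKM (33.2 to 35.8). The log2 ratio was 0.24 (0.16 to 0.32).

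Daglb (gene 231871, chr5:143464484-143504442, plus strand) encodes diacylglycerol lipase beta, which is known from microglia and other immune cells besides neurons. Its level was 12.4 RPKM (11.4 to 13.4) in control against 14.7 RPKM (13.7 to 15.8) in CUMS. The log2 ratio was 0.25 (0.10 to 0.41), close to that of Dagla, but it rested on only 601 and 718 fragments. The value of Daglb is uncertain for another reason. In the GENCODE M21 basic annotation, 2309 bases (49.6%) of its exons lie within exons of Rac1 on the opposite strand, and the methods do not say that strand was used. Rac1, which encodes a small GTPase of the actin skeleton, was far more abundant, at 135 RPKM in control and 141 RPKM in CUMS. Its part in the Daglb value was not tested. The length used for RPKM was 3257 bases, shorter than the annotated 4651, so that the share of the used length that overlaps Rac1 is not known.

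Mgll (gene 23945, chr6:88724412-88828360, plus strand) encodes monoacylglycerol lipase, which ends the signal of 2-AG in axon terminals and astrocytes. It was the most highly expressed member, at 86.3 RPKM (83.9 to 88.8) in control and 91.7 RPKM (89.2 to 94.2) in CUMS. The log2 ratio of 0.09 (0.03 to 0.14) had an interval above 0, since it rested on 4881 and 5192 fragments, although the difference was small. An antisense gene, Gm26588, shares 152 bases (3.15%) of its exons, and the other members besides Daglb had no exon base in another gene.

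Faah (gene 14073, chr4:115996668-116018837, minus strand) encodes the enzyme that hydrolyzes anandamide and related fatty acid amides. It showed the largest ratio of the 6 members. The mean was 27.5 RPKM (26.1 to 28.9) in control against 33.7 RPKM (32.2 to 35.2) in CUMS, a log2 ratio of 0.29 (0.20 to 0.39). Of the genes of at least 0.5 RPKM, 91.2% had a lower log2 ratio than Faah. The central range of log2 ratios, from the 5th to the 95th percentile of genes of at least 5 RPKM, ran from -0.33 to 0.27, so that Faah lay just above it and Dagla and Daglb lay inside it.

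Napepld (gene 242864, chr5:21662901-21701622, minus strand) encodes NAPE-PLD, which releases anandamide and other N-acylethanolamines from their phospholipid precursor. It had 4.18 RPKM (3.65 to 4.75) in control and 3.81 RPKM (3.30 to 4.35) in CUMS. The log2 ratio of -0.13 (-0.41 to 0.14) rested on 229 and 209 fragments, and a difference of this size could not be resolved.

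**Figure D1:**
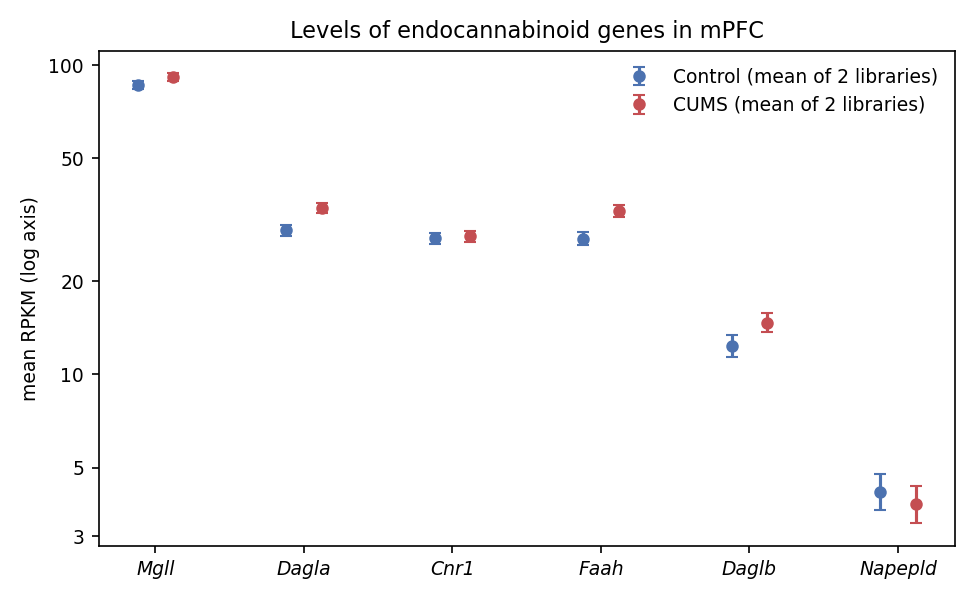
Mean RPKM (log axis) of the 6 genes in control (blue) and CUMS (red). Points are the authors' means of 2 libraries and bars are exact Poisson 95% intervals for counting error. Dagla, Daglb, Faah and Mgll sit higher in CUMS, with the largest relative gap for Faah (27.5 and 33.7 RPKM), whereas the bars of Cnr1 (27.5 and 27.9 RPKM) and of Napepld overlap.

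**Figure D2:**
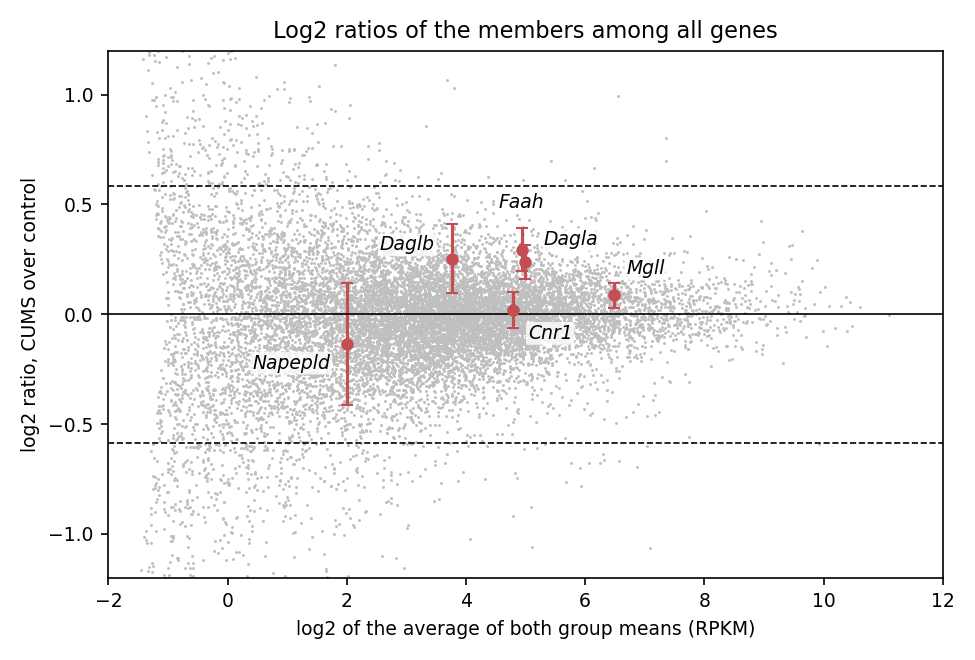
Log2 ratio of CUMS over control against the log2 of the average of both group means. Grey points are genes with 0.5 RPKM or more in a group, red points are the 6 members with 95% counting intervals, and dashed lines mark a fold of 1.5. Genes beyond 1.2 on the vertical axis are not drawn, and all 6 members lie between the dashed lines.

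The levels of the members spanned 20.7-fold in control and 24.1-fold in CUMS. In control the order was Mgll, Dagla, Cnr1, Faah, Daglb and Napepld. Mgll stood 2.95-fold above Dagla, and Dagla was 1.06-fold above Cnr1 with a counting interval of 1.00 to 1.12. Cnr1 and Faah could not be told apart (ratio 1.00, interval 0.940 to 1.07). In CUMS the order of these neighbors was exchanged. Faah stood 1.21-fold above Cnr1 (1.13 to 1.28) and could not be told apart from Dagla (Dagla over Faah 1.02, interval 0.966 to 1.09).

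The upstream sequences of Cnr1, Faah and Daglb are given because Cnr1 and Faah were at the same level in control and apart in CUMS, and because Daglb shared the direction of Faah. RefSeq starts on GRCm38.p6 were matched for 5 of the 6 members. The windows hold up to 250 bases before a start, 5′ to 3′ on the strand of the gene, and hold no base of a GENCODE M21 exon. Those of Cnr1 and Faah lie inside the wider RefSeq spans of their genes given above. They lie at chr4:33924014-33924263 (Cnr1, the first of its listed starts, plus strand), chr4:116017927-116018174 (Faah, minus strand) and chr5:143464243-143464483 (Daglb, plus strand). Capitals mark the GC box, GGGCGG or its reverse complement CCGCCC.
Cnr1: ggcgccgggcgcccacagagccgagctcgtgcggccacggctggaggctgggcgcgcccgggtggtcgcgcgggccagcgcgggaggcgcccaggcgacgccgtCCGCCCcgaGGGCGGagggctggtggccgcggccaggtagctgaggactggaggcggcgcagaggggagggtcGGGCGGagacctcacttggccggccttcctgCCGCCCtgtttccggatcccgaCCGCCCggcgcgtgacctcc
Faah: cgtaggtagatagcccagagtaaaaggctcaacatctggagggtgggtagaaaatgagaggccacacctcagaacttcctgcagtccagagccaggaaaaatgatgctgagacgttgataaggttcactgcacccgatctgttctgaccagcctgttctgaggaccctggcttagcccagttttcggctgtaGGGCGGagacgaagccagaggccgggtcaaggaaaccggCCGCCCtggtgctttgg
Daglb: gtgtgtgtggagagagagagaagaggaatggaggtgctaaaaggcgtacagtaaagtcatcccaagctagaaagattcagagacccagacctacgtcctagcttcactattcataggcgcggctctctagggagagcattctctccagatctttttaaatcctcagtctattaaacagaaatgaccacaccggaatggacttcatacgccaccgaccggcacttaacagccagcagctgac

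Counts are over the full 250 bases, of which 248 are shown for Faah and 241 for Daglb, since the last ones lie within the gene. The Cnr1 window held 5 GC boxes and 36 CpG pairs, more CpG than 97.4% of 32851 promoter windows. The windows of the other listed starts of Cnr1 held 28 and 5 CpG, and 0 GC boxes each. The Faah window held 2 GC boxes and 9 CpG, and the Daglb window held 0 GC boxes and 9 CpG, where the median of all windows was 6 CpG. A GC box on either strand occurred in 32.7% of all windows. The CCAAT box (CCAAT, in 33.8% of windows), the TATA box (TATAAA, in 12.4%) and the cAMP response element (TGACGTCA, in 1.55%), each searched on both strands, were not matched in any of these 3 windows. A match is a description of the letters, and the expression table contains no measurement of a promoter.

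The enzymes among the members act with partner enzymes, and level ratios between partners do not depend on a scaling common to all means of a group. Dagla over Daglb was 2.37 in control and 2.34 in CUMS, a log2 change of -0.01 (-0.19 to 0.16, counting error by normal approximation), so that no shift between the 2-AG-making lipases was detectable. The summed lipases over Mgll, a ratio of 2-AG-making to 2-AG-degrading transcripts, were 0.482 in control and 0.537 in CUMS, a log2 change of 0.16 (0.07 to 0.25). Both of these ratios include Daglb, and their intervals do not cover the uncertainty from its overlap with Rac1. Faah over Napepld was 6.57 in control and 8.84 in CUMS, with a log2 change of 0.43 (0.14 to 0.71). Mgll over Abhd6, a second 2-AG hydrolase, was 4.55 and 5.24, a log2 change of 0.21 (0.03 to 0.39). Mgll over Abhd12, another hydrolase of 2-AG, was 0.562 and 0.583, and its log2 change of 0.05 had an interval from -0.03 to 0.13. The ratio of Faah to Napepld thus changed by the most, with the widest interval.

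**Figure D3:**
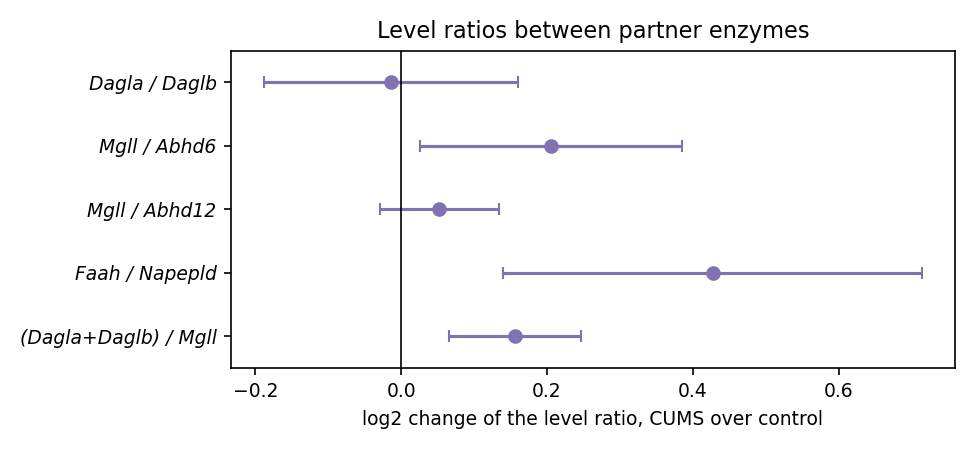
Log2 change of 5 level ratios between partner enzymes, CUMS over control. Points are the changes and bars are 95% intervals for counting error. The bars of Faah over Napepld (0.43), Mgll over Abhd6 (0.21) and the summed lipases over Mgll (0.16) lie above 0. For ratios that include Daglb, the bars do not cover the uncertainty from its overlap with Rac1.

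Other genes of the pathway were examined in 5 lists by role. Of 50 genes listed, 49 were in the table and 43 reached 0.5 RPKM in a group. Of these 43, 1 was higher and 0 were lower by more than 1.5-fold, against the 2.78% and 4.42% of all genes given above. Their median log2 ratio was 0.02, with 22 genes higher and 21 lower. The gene past the threshold was Pla2g4e, which encodes a calcium-dependent N-acyltransferase that makes the precursor of anandamide, the substrate of NAPE-PLD. It had 1.75 RPKM in control (117 fragments) and 3.44 RPKM in CUMS (231 fragments), a log2 ratio of 0.97 (0.65 to 1.31).

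Among the other synthesis enzymes that reached 0.5 RPKM, 3 of 6 genes were higher and 3 were lower. Next to Pla2g4e stood Hrasls, of a calcium-independent acyltransferase family, with 6.65 and 8.86 RPKM (log2 ratio 0.41). The lowest of these was Pla2g16 of the same family, with 8.53 and 7.22 RPKM (log2 ratio -0.24, interval -0.44 to -0.04). Enzymes of the routes that bypass NAPE-PLD did not share a direction. Abhd4 and Gdpd1 had log2 ratios of -0.18 and -0.21, whereas Gde1, the most abundant at 162 RPKM in control, had 0.10. Gdpd3, of the same routes, was near absent (0.125 and 0.185 RPKM).

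Among the other breakdown enzymes and carriers that reached 0.5 RPKM, 5 of 7 genes were higher and 2 were lower, and 0 passed the threshold. Fabp7, a fatty acid carrier of astrocytes and progenitor cells, had the highest log2 ratio of 0.48 (0.20 to 0.75), with 16.7 and 23.2 RPKM. Naaa, a lysosomal amidase of N-acylethanolamines, had 12.8 and 15.9 RPKM (log2 ratio 0.31, interval 0.14 to 0.49), a ratio near that of Faah. Abhd6 was the lowest of these 7 genes, at 19.0 and 17.5 RPKM (log2 ratio -0.12, interval -0.29 to 0.05). The lipoxygenase gene Alox12 had 0.205 and 0.245 RPKM, while Alox15, with 2 control fragments (0.05 RPKM), stood in CUMS at 0.01, the value in place of 0.

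Of the receptors and receptor partners that reached 0.5 RPKM, Cnrip1, whose protein binds the tail of CB1, had the highest log2 ratio of 0.22 (0.10 to 0.35), with 39.2 and 45.8 RPKM. Gprasp1, whose protein sorts receptors to the lysosome, had the lowest of these, -0.13 (-0.17 to -0.09), with 99.6 and 91.0 RPKM. The second cannabinoid receptor gene Cnr2 was near absent, with 0.035 RPKM in control (2 fragments) and 0.155 RPKM in CUMS (9 fragments), a log2 ratio of 2.15 with a counting interval from -0.10 to 5.42. Gpr18 (0.10 and 0.05 RPKM) and Trpv1 (0.075 and 0.05 RPKM) rested on at most 3 fragments in a group.

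Receptors that raise diacylglycerol, the substrate of the DAGL enzymes, showed both directions. The muscarinic receptor gene Chrm3 was the highest of this list, with 11.45 RPKM in control and 15.8 RPKM in CUMS (log2 ratio 0.46, interval 0.30 to 0.62). Plcb4, a phospholipase C, was the lowest, with 5.12 and 4.02 RPKM (log2 ratio -0.35, interval -0.61 to -0.09). Grm5, the glutamate receptor gene that is classically linked to 2-AG release, had 12.6 and 12.5 RPKM. The list held 5 higher and 7 lower genes, with 0 past the threshold. In the list of signalling below CB1, 7 of 14 genes were higher and 7 were lower, again with 0 past the threshold. Gnai1, an inhibitory G protein subunit, was the highest (log2 ratio 0.17), and Adcy5, an adenylyl cyclase that is abundant in striatum, was the lowest (log2 ratio -0.28).

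Markers of cell types moved between the groups as well. Their directions are to be read beside a median log2 ratio of -0.02 over all genes of at least 0.5 RPKM. Excitatory neuron markers were higher in 6 of 6 genes (median log2 ratio 0.32), and their summed level was 1560 in control and 1870 RPKM in CUMS. Slc17a7, the vesicular glutamate transporter gene of cortical excitatory neurons, was at 635 and 791 RPKM (log2 ratio 0.32). The members had log2 ratios of 0.29 (Faah), 0.25 (Daglb), 0.24 (Dagla), 0.09 (Mgll), 0.02 (Cnr1) and -0.13 (Napepld), all below the median of these markers. A link between the members and these markers was not tested. GABAergic neuron markers were lower in 4 of 4 genes (median -0.69, summed 426 and 301 RPKM), among them Gad1 at 158 and 104 RPKM. Markers of cortical interneurons that carry Cck, the cells with the strongest Cnr1 expression in neocortex, did not share a direction, with 3 higher and 3 lower (median -0.02, summed 501 and 635 RPKM). Most of that sum was Cck itself, at 421 and 565 RPKM, which is also among the higher genes. Bulk RNA cannot assign Cck to these interneurons, so that neither the sum nor the count stands for them alone.

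Oligodendrocyte markers were lower in 6 of 6 genes (median -0.50, summed 1772 and 1207 RPKM). Astrocyte markers were higher in 4 and lower in 2 genes (median 0.06, summed 475 and 478 RPKM), and microglia markers were likewise higher in 4 and lower in 2 genes (median 0.08, summed 132 and 140 RPKM). Striatal projection neuron markers, which matter because such neurons express Cnr1, were lower in 6 of 6 genes (median -0.27, summed 308 and 265 RPKM), with Drd1a at 10.8 and 8.98 RPKM. Olfactory bulb markers were lower in 4 of 4 genes (median -1.35, summed 23.2 and 10.4 RPKM). None of the markers was at 0. In such bulk tissue, fewer cells of a type, less RNA per cell and a different share of neighboring regions in the dissected piece cannot be told apart. The part of these markers in the member values was not tested.

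**Figure D4:**
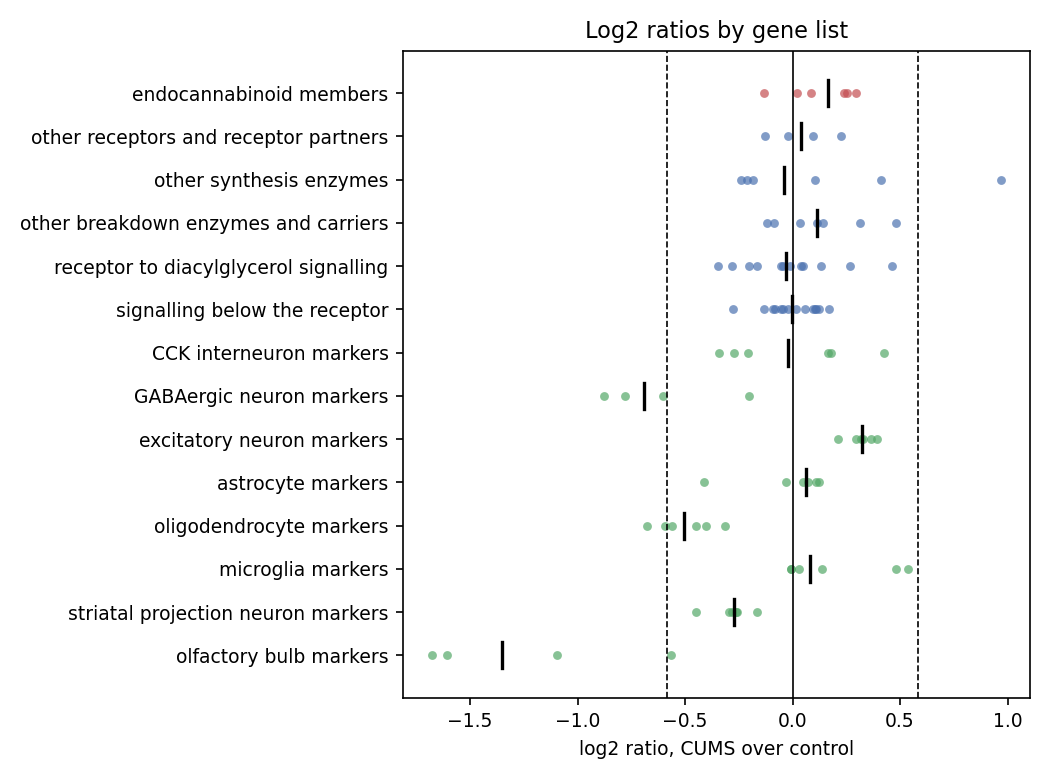
Log2 ratio of CUMS over control for each gene with 0.5 RPKM or more in a group. Red points are the 6 members, blue points are 5 related lists and green points are 8 cell type or region marker lists, with black bars at the medians and dashed lines at a fold of 1.5. The members have a median of 0.16, below the excitatory neuron markers (0.32) and above the GABAergic neuron markers (-0.69).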

How the data were processed

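Poly(A) RNA was sequenced in 2 control and 2 CUMS libraries. Per the methods of the study, reads were trimmed with SolexaQA and aligned to mm10 (GRCm38) with TopHat 1.0.12 and Bowtie 0.11.3, versions that the submitters' processing notes also give. Uniquely aligned reads were turned into RPKM by the authors, who deposited 1 mean RPKM per gene and group, with 0.01 in place of 0. The deposited gene length (bases) was used as well. Their log2 ratio and NOISeq probability columns were not used. Log2 ratios were computed from the means without a pseudocount. Depth was estimated from genes shorter than 1000 bases with RPKM x bases under 350, as the step between 20 and 200 that left the most products within 0.15 of a whole number (87.9% of 406 control and 87.5% of 392 CUMS values). The procedure was tested on simulated Poisson counts, with equal depth in all libraries and no spread between mice. Such a test cannot show that the estimated depth is right for the real libraries. The estimate is lower than the read numbers of the study imply, for a reason that was not resolved. The methods of the study do not say that PCR duplicates were marked. If duplicates were kept, the intervals are too narrow even for the counting error that they cover.

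The members and lists were chosen with earlier results of these data known. Named were the members, the highest and lowest gene and any gene past the fold in each related list, genes under 0.5 RPKM, the 3 genes nearest to Cnr1, and a few marker examples. The gene Hrasls5 was not analysed here. Further enzymes were named for their roles after their values had been seen. Python 3.11.15, NumPy 2.4.6, pandas 2.3.3 and SciPy 1.17.1 were used.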

Additional observations from a re-analysis of the deposited data

How the results depend on the processing

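Of 46 values under alternative settings, 42 kept their direction and stayed within the limits set for them, and none changed direction. They cover a looser limit (a difference above 25% of the smaller mean) and a fold threshold of 2 for the members, a pseudocount of 1 RPKM, and a depth taken as smaller or larger than estimated by a factor of 2. They also cover CUMS rescaled so that the median gene did not differ (a log2 shift of 0.02) or to an equal total over genes of at least 5 RPKM (a shift of -0.01), and the order of levels without division by gene length. The 4 values that moved were counts in the related lists. At the looser limit, 4 genes were higher (Pla2g4e, Hrasls, Fabp7 and Chrm3, in place of 1) and 1 was lower (Plcb4, in place of 0). Without the minimum of 0.5 RPKM, 2 were higher, with Cnr2 added, and 2 were lower (Gpr18 and Alox15, each on at most 2 fragments per group). No paired analysis was possible because each group is given as 1 mean in the table used here. Hence no library could be left out, limma was not run, and the depth limits most the value of Napepld, the member with the fewest fragments.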
